A study of Homo sapiens with 12 samples.

Results

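The PI4KA complex, the other phosphatidylinositol 4-kinases and the phosphatase that removes their product were followed through a time course of GSK-A1, an inhibitor of PI4KA. The members were chosen by name as 10 Ensembl transcript identifiers: PI4KA, TTC7A, TTC7B, HYCC1, EFR3A and EFR3B of the plasma membrane complex, the kinases PI4KB, PI4K2A and PI4K2B, and the phosphatase SACM1L. Of these, 8 were listed in all 12 count files, among 18338 transcripts in the series. The identifiers given for PI4K2B (ENST00000264864) and HYCC1 (ENST00000432176) were in no file used here, and these genes were not analysed here. The pairing of identifier and gene name comes from the choice of members, since the count files hold identifiers only, and another transcript of the same gene would be counted under another identifier.

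Phosphatidylinositol 4-kinases phosphorylate phosphatidylinositol to the lipid PI4P, which marks the Golgi and the plasma membrane, is the precursor of PIP2 and drives lipid exchange at contact sites with the endoplasmic reticulum. At the plasma membrane, PI4KA works in a complex with a TTC7 scaffold and a hyccin subunit, and the palmitoylated EFR3 proteins anchor the complex to the membrane. PI4KB makes Golgi PI4P, the type II kinases act at the trans-Golgi network and endosomes, and SACM1L (Sac1) removes the phosphate, mainly in the endoplasmic reticulum and Golgi.

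Reads of ribosome-protected fragments (RPF, the stretches of mRNA covered by ribosomes and so spared by nuclease) and of mRNA were counted in HEK293T, a cell line derived from human embryonic kidney. The labels give the genotype WT and the treatment GSK-A1 for every library, and the titles give 0, 60 or 360 min. With 2 replicates per assay and time there were 12 libraries, and only the stated time of 0 min makes a library an untreated one. No dose is given, and the samples used here hold no vehicle series at the later times, so inhibitor and elapsed time cannot be told apart. No label says whether replicates came from separate cultures, and the p-values measure only the spread between these libraries. Library totals ran from 546547 to 1165740 counts in RPF and from 429026 to 1002695 in mRNA, with both 360 min mRNA libraries the shallowest of that assay. The 8 members together held 159 to 283 counts per RPF library and 140 to 364 per mRNA library, so counting error alone is large for most of them. Levels are given as CPM, counts scaled to the library's total after edgeR's TMM normalisation. They are not divided by transcript length, so a level is compared between times and not between genes. CPM are relative to the other transcripts of a library, and a bulk library cannot tell fewer cells with a transcript from less of it per cell.

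No member passed an adjusted p-value of 0.05 in RPF, in mRNA or in RPF relative to mRNA. With edgeR's quasi-likelihood test and Benjamini-Hochberg adjustment over all transcripts, 0 of 7 members tested were called in RPF in each of the 3 comparisons of times, as were 0% of 9653 transcripts. In mRNA, 0 of 6 members tested were called in each comparison, and 0% of 9693 transcripts. In the ratio of RPF to mRNA (often called translational efficiency, here the assay by time interaction), 0 of 6 were called, and 0% of 8632 transcripts. DESeq2 also called 0 members in each comparison, though members to which it gave no adjusted p-value could not be called. In mRNA these included TTC7A, PI4KB and SACM1L at 360 against 0 min, and TTC7A, EFR3A and SACM1L at 360 against 60 min. In the ratio they included PI4KA at 360 against 60 min. DESeq2 did call a few transcripts. In RPF these were 0.0104% of transcripts at 60 and at 360 min against 0 min and 0.0622% at 360 against 60 min. In mRNA they were 0%, 0.196% and 0.629% in the same order, and in the ratio 0%, 0% and 0.0348%. The smallest adjusted p-value among the 57 edgeR tests of members was 0.485. Only 2 of the 57 had an unadjusted p-value under 0.05, and both concerned PI4KB at 360 min against 0 min, in mRNA and in the ratio. These 2 tests share the mRNA libraries of 0 and 360 min, so they are not separate results. In mRNA the edgeR p-value was 0.0390 with RLE factors, 0.0928 with library totals and 0.0526 without a filter, and DESeq2 gave 0.0833. In edgeR it was 0.0509 with a replicate block and 0.0518 in the compared times alone. Exchanging the 0 min replicate numbers in that block, an alternative added after the data were seen, gave 0.0173. Under the same settings, the exchange aside, the ratio gave 0.0161 (replicate block) to 0.0307 (DESeq2). Neither p-value stayed under 0.05 in every fit that left out 1 library. Unadjusted, then, 0 of 7 members passed in RPF, where 2.31% of all transcripts did for 60 against 0 min, 3.91% for 360 against 0 min and 7.79% for 360 against 60 min. In mRNA the members passing were 0, 1 and 0 of 6 in the same order of comparisons, beside 1.37%, 8.94% and 10.3% of all transcripts. In the ratio they were 0, 1 and 0 of 6, beside 1.74%, 5.91% and 4.84%. PI4K2A passed the filter on low counts in neither assay and EFR3B passed it in RPF only.

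The promoters of PI4KA, the target of the inhibitor, and of PI4KB, the kinase with the smallest p-values, are shown first. Each is given as the 250 bases before the start of the RefSeq gene record on GRCh38.p14. Whether the counted transcripts begin at that start was not checked. Windows were kept for 6 of the 8 measured members, and those of EFR3A and PI4K2A were not analysed here. Capitals mark matches on either strand to CACGTG (the E-box core), GGGCGG (the GC box, read as CCGCCC on the other strand) and CCAAT (read as ATTGG), a search chosen after the expression values were seen. The windows are chr22:20858812-20859061 on the minus strand for PI4KA and chr1:151327716-151327965 on the minus strand for PI4KB.
PI4KA: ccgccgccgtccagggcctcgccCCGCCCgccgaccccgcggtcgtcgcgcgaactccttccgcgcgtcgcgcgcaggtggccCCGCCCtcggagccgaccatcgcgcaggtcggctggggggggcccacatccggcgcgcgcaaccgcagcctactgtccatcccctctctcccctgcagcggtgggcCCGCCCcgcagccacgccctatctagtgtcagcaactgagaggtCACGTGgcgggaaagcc
PI4KB: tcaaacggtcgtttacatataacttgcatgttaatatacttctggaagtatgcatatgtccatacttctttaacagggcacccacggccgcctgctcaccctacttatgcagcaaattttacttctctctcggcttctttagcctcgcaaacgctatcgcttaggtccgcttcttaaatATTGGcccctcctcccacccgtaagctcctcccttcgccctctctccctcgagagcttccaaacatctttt
The PI4KA window held 1 CACGTG, its first base 17 bases before the start, and 3 GC boxes. That of PI4KB held 1 CCAAT and neither of the other motifs. Over all 35116 RefSeq windows of this length, 6.35% held CACGTG, 42.6% GGGCGG and 32.0% CCAAT, and no motif overlapped another in either window shown. G and C made up 75.6% of the PI4KA window and 47.6% of that of PI4KB, against a median of 58.0% over all windows. A match is a string of letters and was not tested as a binding site.

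PI4KA (ENST00000255882), the catalytic subunit and the enzyme that GSK-A1 inhibits, had the most counts of the complex members. Its RPF level was 57.7 and 98.5 CPM at 0 min (replicates 1 and 2), 95.1 and 103 CPM at 60 min, and 97.0 and 110 CPM at 360 min. The 4 later libraries lay close together, and replicate 2 of 0 min lay above the lowest library of either later time, so the times overlapped. The log2 change was 0.35 (SE 0.38, 95% interval −0.45 to 1.14) at 60 min and 0.41 (SE 0.38, −0.40 to 1.21) at 360 min against 0 min, and the edgeR adjusted p-values were 0.9996 and 0.9997. The low value of 0 min replicate 1 set most of this difference: without that library the changes were 0.015 and 0.062, and without replicate 2 they were 0.79 and 0.81. Between 60 and 360 min the RPF change was 0.060 (SE 0.38, −0.74 to 0.86, edgeR adjusted p = 0.983), with a sign that turned under other settings.

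The mRNA level of PI4KA was 112 and 115 CPM at 0 min, 140 and 125 CPM at 60 min, and 150 and 216 CPM at 360 min. Here the times did not overlap, each later pair lying above the earlier ones. The log2 change was 0.22 (SE 0.38) at 60 min against 0 min, 0.69 (SE 0.39, 95% interval −0.18 to 1.57) at 360 min against 0 min and 0.47 (SE 0.38) at 360 min against 60 min. The edgeR adjusted p-values were 0.99996, 0.602 and 0.717, so none of these differences passed. At 360 min the change was 0.44 without replicate 2 of that time and 0.94 without replicate 1. The interval at 360 min reaches from a slight decrease to nearly a tripling, and the data do not bound the change more tightly. The ratio of RPF to mRNA was 0.665 at 0 min, 0.748 at 60 min and 0.574 at 360 min, and its log2 change was 0.12 (SE 0.52) at 60 min against 0 min, −0.30 (SE 0.52) at 360 min against 0 min and −0.42 (SE 0.52) at 360 min against 60 min, all with an edgeR adjusted p of at least 0.967. Its sign turned at 60 min without 0 min RPF replicate 1 (−0.21) and at 360 min without 0 min RPF replicate 2 (0.11).

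**Figure D1:**
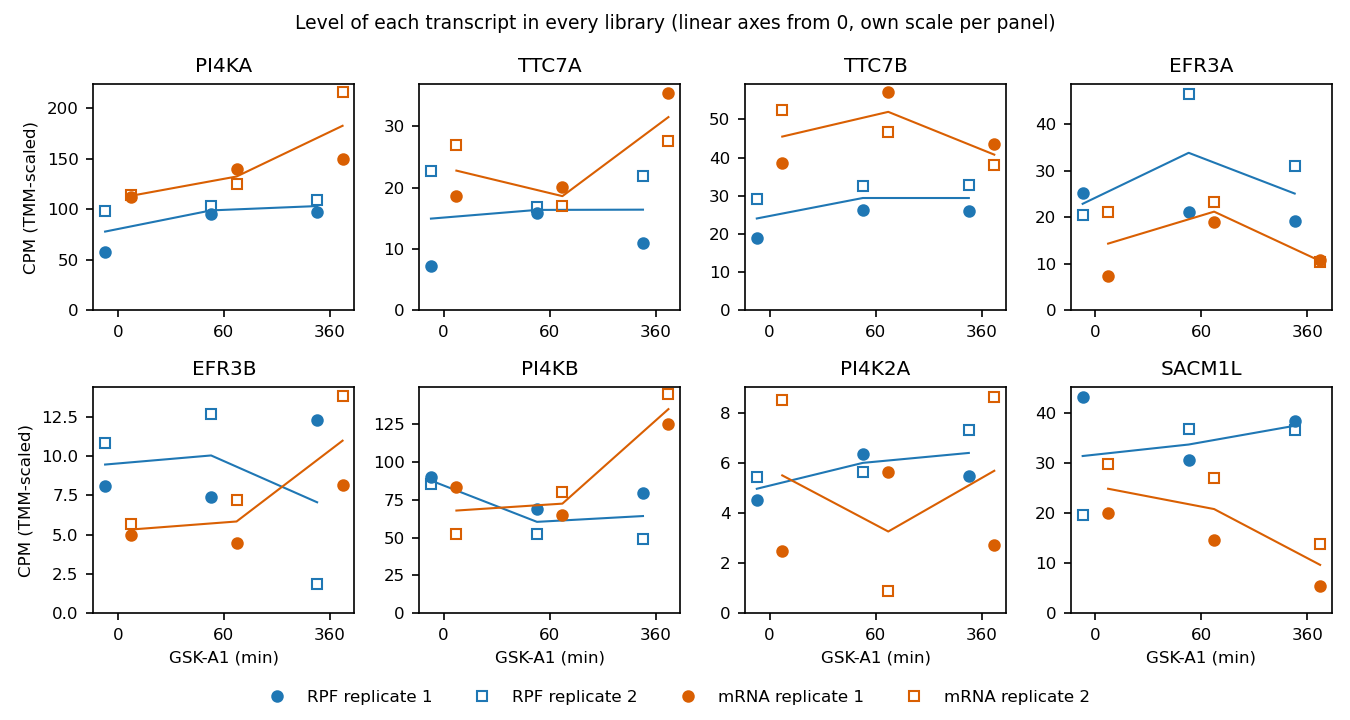
Level of the 8 measured transcripts in TMM-scaled CPM (vertical axes, linear from 0, a separate scale per panel) at 0, 60 and 360 min of GSK-A1 (horizontal axis, evenly spaced categories). Blue marks RPF and orange mRNA, filled circles replicate 1, open squares replicate 2, and lines join the means of 2 libraries; PI4KB mRNA at 360 min (125 and 145 CPM) lies above all its earlier mRNA libraries and SACM1L mRNA at 360 min (5.45 and 13.8 CPM) below all of its own.

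TTC7A (ENST00000319190) and TTC7B (ENST00000328459), alternative scaffolds that hold PI4KA and hyccin together, showed overlapping RPF libraries between all times. TTC7A held 7.21 and 22.7 CPM at 0 min, 15.9 and 16.9 CPM at 60 min, and 10.9 and 21.9 CPM at 360 min in RPF, on 8 to 21 counts. TTC7B held 18.9 and 29.2 CPM, 26.4 and 32.4 CPM, and 26.0 and 32.9 CPM at the same times, on 18 to 27 counts. For both transcripts the starting replicates were further apart than the means of any 2 times.

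In mRNA the scaffolds had differences of opposite sign between 60 and 360 min, neither past the test. TTC7A held 18.7 and 26.9 CPM at 0 min, 20.2 and 17.1 CPM at 60 min, and 35.4 and 27.6 CPM at 360 min. Its 360 min libraries lay above those of both earlier times, though by less than 1 count is worth against 0 min, with log2 changes of 0.45 (SE 0.48) against 0 min and 0.74 (SE 0.48) against 60 min (edgeR adjusted p = 0.769 and 0.635). TTC7B mRNA was 38.6 and 52.4 CPM at 0 min, 57.2 and 46.7 CPM at 60 min, and 43.6 and 38.0 CPM at 360 min. Its 360 min libraries lay below those of 60 min but overlapped those of 0 min, and the log2 change against 60 min was −0.35 (SE 0.40, edgeR adjusted p = 0.803).

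Within a library, the share of TTC7A among TTC7A and TTC7B counts does not depend on scaling. In mRNA it was 32.6% and 33.9% at 0 min, 26.1% and 26.8% at 60 min, and 44.8% and 42.1% at 360 min. Replicates of a time were close and the times did not overlap, but each share rested on 29 to 71 counts and the exact 95% intervals of all 6 libraries overlapped (16.3% to 38.1% in 60 min replicate 1, 26.4% to 64.3% in 360 min replicate 1). In RPF the share ran from 27.6% to 43.8%, both ends at 0 min.

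EFR3A (ENST00000254624) and EFR3B (ENST00000403714) are the membrane anchors, and EFR3B was the most thinly counted of the subunits. EFR3A RPF was 25.2 and 20.6 CPM at 0 min, 21.1 and 46.6 CPM at 60 min, and 19.1 and 31.1 CPM at 360 min, overlapping between all times. Its mRNA was 7.48 and 21.2 CPM at 0 min, 19.1 and 23.4 CPM at 60 min, and 10.9 and 10.4 CPM at 360 min. The 360 min mRNA libraries, at 4 and 6 counts, lay below both 60 min libraries, with a log2 change of −0.995 (SE 0.67, 95% interval −2.50 to 0.51, edgeR adjusted p = 0.651). EFR3A passed the filter on low counts in mRNA only because of the 60 min libraries, where its mean was highest, so this comparison is not an independent choice. EFR3B held 1 to 10 counts per RPF library and 3 to 8 per mRNA library. Its mRNA was 4.99 and 5.66 CPM at 0 min, 4.49 and 7.19 CPM at 60 min, and 8.17 and 13.8 CPM at 360 min. The last pair was the highest, was not tested because of the filter, and included a library with 3 counts. That library lay above the nearest earlier ones by 2.51 CPM (0 min) and 0.983 CPM (60 min), and 1 count in it is worth 2.72 CPM. The single RPF count of 360 min replicate 2 makes that library's share of EFR3A, 94.4% of 18 EFR3 counts (exact 95% interval 72.7% to 99.9%), the highest of the 12, against 42.9% to 81.0% in the other 11.

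PI4KB (ENST00000368873), the Golgi kinase, had the smallest p-values of the members. Its RPF level was 90.1 and 85.5 CPM at 0 min, 68.7 and 52.2 CPM at 60 min, and 79.3 and 49.4 CPM at 360 min. Both later pairs lay below both 0 min libraries. The log2 change was −0.53 (SE 0.38, 95% interval −1.33 to 0.27) at 60 min and −0.44 (SE 0.38, −1.25 to 0.37) at 360 min (edgeR adjusted p = 0.9996 and 0.9997). Without 360 min replicate 1 the change at 360 min was −0.87, and without 360 min replicate 2 it was −0.16. PI4KB was 1 of 7 members, at 60 min and again at 360 min, whose RPF libraries all lay below 0 min, where 16% and 13.8% of all transcripts did. Of the 7 members tested, 0 had RPF libraries that all lay above 0 min in either comparison, where 15.2% and 13.6% of transcripts did. These 2 comparisons share the 0 min libraries.

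In mRNA, PI4KB held 83.5 and 52.4 CPM at 0 min, 65.1 and 80.0 CPM at 60 min, and 125 and 145 CPM at 360 min, on 46 and 84 counts in the last pair. The 2 earlier times overlapped, and both 360 min libraries lay above all 4 earlier ones. The log2 change was 0.99 (SE 0.40, 95% interval 0.08 to 1.90) against 0 min, with an edgeR adjusted p of 0.558 (0.0357 before adjustment). Against 60 min it was 0.90 (SE 0.40, edgeR adjusted p = 0.485). Leaving out 1 library at a time moved the change against 0 min between 0.69, without 0 min replicate 2, and 1.41, without 0 min replicate 1.

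PI4KB was the member whose RPF and mRNA libraries lay on opposite sides of 0 min at 360 min. Its ratio of RPF to mRNA was 1.33 at 0 min (1.02 to 1.72 over the 4 pairings of an RPF with an mRNA library), 0.830 (0.653 to 1.06) at 60 min and 0.464 (0.340 to 0.632) at 360 min. The pairings of 0 and 360 min did not overlap, and neither did those of SACM1L (0.656 to 2.17 and 2.65 to 7.02). The share of all transcripts with such a gap was not computed. Among the transcripts tested in both assays and listed in all 4 libraries of a time, PI4KB went from the 60.5th percentile of the ratio at 0 min to the 35.6th at 60 min and the 10.8th at 360 min, while the median over all transcripts was 1.10, 1.07 and 1.16. From 0 to 360 min the ratio differed by −1.44 on the log2 scale (SE 0.54, 95% interval −2.59 to −0.29), with an adjusted p of 0.836 in edgeR's interaction test (0.0172 before adjustment). Of 8632 transcripts, 1.53% had both RPF libraries lower and both mRNA libraries higher at 360 min than at 0 min, and PI4KB was 1 of 6 members to do so. No member did in the other comparisons or in the reverse arrangement, where the shares of transcripts were 2.53% and 1.77% for 60 against 0 min, 2.1% in reverse for 360 against 0 min, and 1.59% and 1.7% for 360 against 60 min.

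Counts of PI4KA against PI4KB within a library compare these kinases without scaling. In RPF, PI4KA took 39.0% of the 164 counts of both (exact 95% interval 31.5% to 46.9%) and 53.5% of 170 (45.7% to 61.2%) at 0 min. It took 58.1% (49.9% to 65.9%) and 66.4% (56.7% to 75.1%) at 60 min, and 55.0% (46.0% to 63.8%) and 69.0% (58.1% to 78.5%) at 360 min. All 4 later libraries lay above both 0 min libraries, but their intervals all overlapped that of 0 min replicate 2. The 0 min replicates differed from each other by nearly as much as the means of 0 min and of the later times. The share uses the same RPF counts in which PI4KB lay lower at both later times, so this order is not a separate result. How often other pairs of transcripts show such an order was not computed. In mRNA the share ran from 54.5% to 68.6% with no such order.

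**Figure D2:**
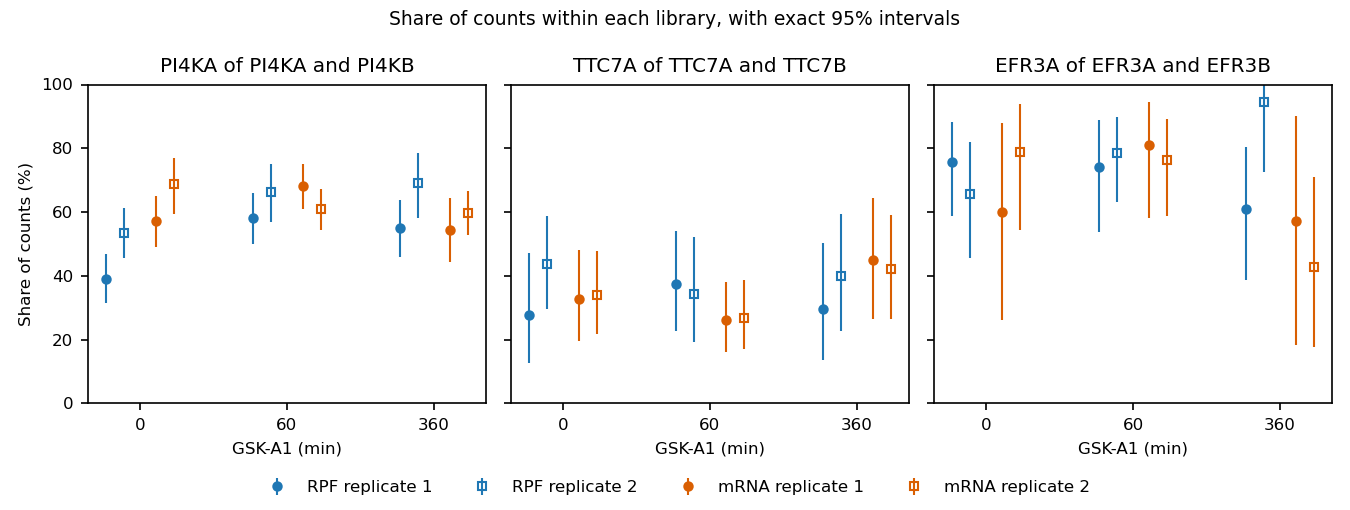
Share of counts (percent, vertical axis) of PI4KA among PI4KA and PI4KB, TTC7A among TTC7A and TTC7B, and EFR3A among EFR3A and EFR3B in each library, by time of GSK-A1 (horizontal axis); bars are exact 95% Clopper-Pearson intervals, which cover counting error only. Blue marks RPF, orange mRNA, filled circles replicate 1 and open squares replicate 2. The PI4KA share of RPF at 0 min (39.0% and 53.5%) lies below that of the 4 later RPF libraries (55.0% to 69.0%). The intervals of these 4 overlap that of 0 min replicate 2.

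PI4K2A (ENST00000370631), a type II kinase of the trans-Golgi network and endosomes, was listed in every library at 4 to 6 counts in RPF and 1 to 6 in mRNA. Its RPF level was 4.50 and 5.41 CPM at 0 min, 6.34 and 5.64 CPM at 60 min, and 5.47 and 7.31 CPM at 360 min. Both later pairs lay above 0 min, but the nearest libraries were closer than 1 count is worth in either, and no test was made because of the filter. In mRNA it ranged from 0.899 to 8.63 CPM with the times overlapping.

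SACM1L (ENST00000389061), the phosphatase that turns PI4P back into phosphatidylinositol, had differences of the opposite sign to PI4KB at 360 min, in mRNA and in the ratio of RPF to mRNA. Both differences share the mRNA libraries of 0 and 360 min, so they are not separate results. The mRNA of SACM1L was 19.9 and 29.7 CPM at 0 min, 14.6 and 27.0 CPM at 60 min, and 5.45 and 13.8 CPM at 360 min. Both 360 min libraries lay below all 4 earlier ones, on 2 and 8 counts, and the nearest 60 min library was less than 1 count away. The log2 change was −1.26 (SE 0.65, 95% interval −2.74 to 0.21) against 0 min and −1.03 (SE 0.65) against 60 min (edgeR adjusted p = 0.589 and 0.632). Without 360 min replicate 2 the change against 0 min was −2.11, and without 360 min replicate 1, the library with 2 counts, it was −0.82. Against 60 min the lowest and highest of these values were −1.91 without 360 min replicate 2 and −0.52 without 60 min replicate 2.

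The RPF libraries of SACM1L overlapped between all times. They held 43.2 and 19.5 CPM at 0 min, 30.7 and 36.7 CPM at 60 min, and 38.3 and 36.6 CPM at 360 min, with a log2 change of 0.24 (SE 0.46, edgeR adjusted p = 0.9997) at 360 min against 0 min. Without 0 min replicate 1 that change was 0.93, and without 0 min replicate 2 it was −0.23. The ratio of RPF to mRNA was 1.19 (0.656 to 2.17 over the 4 pairings) at 0 min, 1.69 (1.14 to 2.51) at 60 min and 4.31 (2.65 to 7.02) at 360 min. That placed it at the 54.4th, 74.9th and 94.5th percentile of the transcripts compared at each time. From 0 to 360 min it differed by 1.48 on the log2 scale (SE 0.80, 95% interval −0.22 to 3.18), with an adjusted p of 0.836 in edgeR's interaction test (0.0835 before adjustment). Without 360 min mRNA replicate 2 it was 2.34 and without 0 min RPF replicate 2 it was 1.01.

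**Figure D3:**
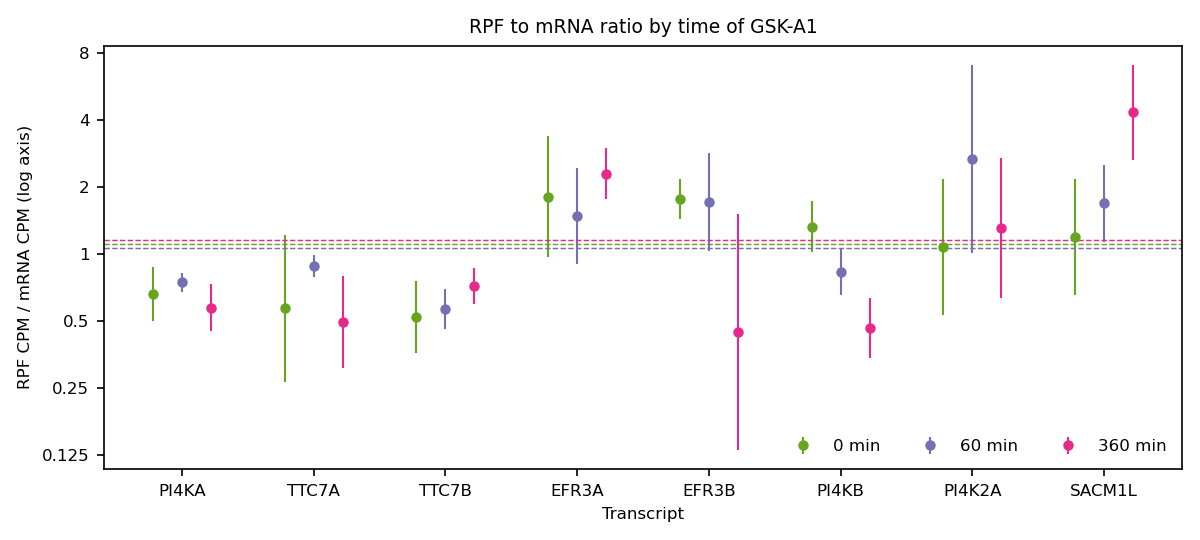
Ratio of RPF to mRNA level for each measured transcript (vertical axis, logarithmic) at 0, 60 and 360 min. Points are ratios of geometric means of 2 libraries per assay, bars span the 4 pairings of an RPF with an mRNA library, and dashed lines give the median over all transcripts compared at each time; PI4KB goes from 1.33 to 0.464 and SACM1L from 1.19 to 4.31 between 0 and 360 min.

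At 0 min the ratio of RPF to mRNA varied among the subunits of the complex. PI4KA, TTC7A and TTC7B had ratios of 0.665, 0.571 and 0.523, at the 24.5th, 18.5th and 15.5th percentile of 8631 transcripts. EFR3A had a ratio of 1.81, at the 77.1st percentile, and EFR3B, outside the tested set, had 1.76. The pairings of TTC7A (0.268 to 1.22) and EFR3A (0.969 to 3.37) overlapped, while those of TTC7B (0.361 to 0.757) and PI4KA (0.503 to 0.878) lay below those of EFR3A. PI4KA and TTC7B stayed under the median of all transcripts in every pairing at all 3 times, and the share of all transcripts that did so was not computed. The sources used here do not say whether both assays were counted over the same part of a transcript, so a ratio is more readily compared between times than between genes.

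Over all members tested, changes went in both directions. In RPF the median log2 change of the 7 tested was 0.15 at 60 min and 0.13 at 360 min against 0 min, beside −0.0099 and 0.024 over all transcripts tested. In mRNA the 6 tested had medians of 0.14 and 0.15, beside −0.016 and −0.032. In the ratio of RPF to mRNA the 6 tested had medians of 0.11 and 0.067, beside 0.0060 and 0.043. At 360 min against 60 min, all 6 members tested in mRNA had libraries that did not overlap (SACM1L by less than 1 count). EFR3A was among the 6 only because of its 60 min libraries. By this lack of overlap PI4KA, TTC7A and PI4KB were higher and TTC7B, EFR3A and SACM1L lower. Over all 9693 transcripts 20.6% were higher and 19.6% lower in this way, and the median log2 change of the 6 was 0.057, beside −0.044 over all. In RPF, 0 of 7 members were free of overlap in the same comparison, where 17.5% of all transcripts lay entirely above and 17.9% entirely below. In mRNA at 360 min against 0 min, PI4KA, TTC7A and PI4KB (3 of 6) were higher and SACM1L (1 of 6) lower in this way, with 19.8% and 19% of all transcripts, and at 60 min 1 of 6 was higher (PI4KA) and 0 lower, with 13.6% and 12.1%. In mRNA the smaller depth of the 360 min libraries falls together with the time, and its part in these differences was not tested.

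**Figure D4:**
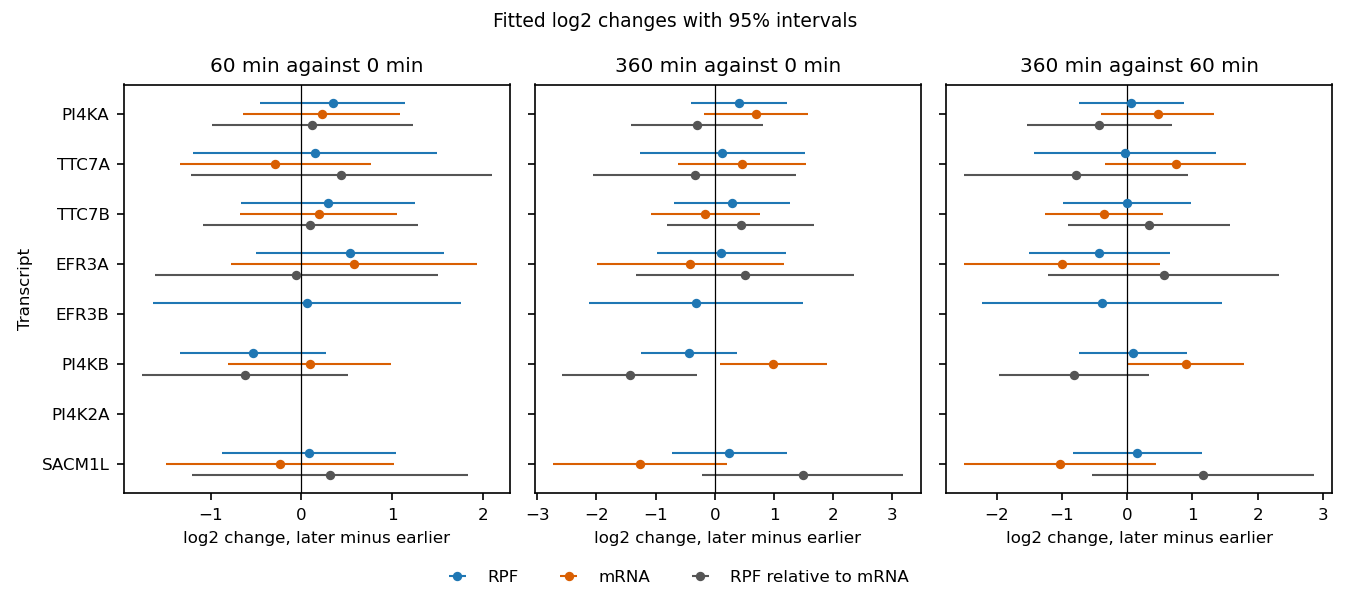
Fitted log2 changes (horizontal axis, later minus earlier time) of the members that passed the filter, with 95% intervals, for RPF, mRNA and RPF relative to mRNA in the 3 comparisons of times. The intervals that leave out 0 are those of PI4KB at 360 min against 0 min, in mRNA (0.08 to 1.90) and in the ratio (−2.59 to −0.29), before adjustment for the number of transcripts tested.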

How the data were processed

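Each deposited file gives whole-number counts by Ensembl transcript, not normalised as far as the values show; only transcripts with at least 1 count are listed, and an absent row was taken as 0. Per the submitters' processing notes, cutadapt 2.8, Bowtie 1.2.3 and STAR 2.7.10a were used. The genome build, annotation release, counted region, use of strand and treatment of duplicate or multiply mapping reads are not given in the sources used here, so reads shared with overlapping genes or paralogs are uncertain. The extraction protocol in the labels describes nuclease digestion and size selection of RPF but not the mRNA libraries.

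The analysis used edgeR 4.0.16 under R 4.3.3 (filterByExpr, TMM, estimateDisp, glmQLFit, glmQLFTest). For each assay, all transcripts and 6 libraries entered a single fit on time. RPF relative to mRNA was tested as the interaction in all 12 libraries. P-values were Benjamini-Hochberg adjusted, with 0.05 as the threshold. SEs were derived from the change and its F statistic. The pipeline was run on simulated counts with planted changes larger than any fitted for a member, and the outcome is not reported here. That run cannot show whether changes of the members' size would be called. Alternatives were RLE factors, library totals, no filter, DESeq2 1.42.0, fits of the compared times alone, a replicate block and leaving out each library. Replicates differed beyond sampling noise, and none was counted as a duplicate.

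All members were described; changes with a test are printed for PI4KA, for members whose libraries did not overlap between times, and for ratios with an unadjusted p-value under 0.1, beside 1 RPF change of SACM1L given for comparison. The members, lists and search motifs were chosen with earlier results of these data known. A longer list of PI4P pathway genes was not analysed here, since no table at hand pairs transcript identifiers with names. Cell line markers were not analysed for the same reason. Promoter windows other than the 2 printed are not reported here.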

Additional observations from a re-analysis of the deposited data

Results flagged for a closer look

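PI4KB drew attention because, at 360 min against 0 min, both of its RPF libraries lay lower and both of its mRNA libraries higher. In edgeR's interaction test its log2 change in RPF relative to mRNA was −1.44, with an adjusted p of 0.836 over 8632 transcripts (0.0172 before adjustment), so it did not pass. Leaving out 1 library at a time moved it between −1.88 and −1.13, with adjusted p-values from 0.35 to 0.9988 over all alternatives.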

How the results depend on the processing

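No member was called in any of the 104 alternative fits of the 9 comparisons, of which 19 called at least 1 transcript and the most was 113, in mRNA at 360 against 60 min without a filter. Without a filter the calls in mRNA were 17, 89 and 113 for 60 against 0, 360 against 0 and 360 against 60 min, and 33 in RPF at 360 against 60 min. They were 76 in that RPF comparison without 360 min replicate 1. DESeq2 called 1, 1 and 6 transcripts in RPF, 0, 19 and 61 in mRNA and 0, 0 and 3 in the ratio. Of 245 alternative values of the printed changes 237 kept their direction. The 8 that did not belonged to PI4KA and, when 1 library was left out, to SACM1L in RPF at 360 min against 0 min (−0.23 to 0.93). The PI4KA RPF change at 360 min against 60 min was −0.054 with library totals alone, −0.00061 without a filter and −0.039 to 0.11 when 1 library was left out. Its change in the ratio at 60 min against 0 min was −0.018 with library totals alone and −0.21 to 0.57 when 1 library was left out, and at 360 min against 0 min −0.64 to 0.11 when 1 was left out. Library totals moved the median of all transcripts from −0.032 to −0.18 in mRNA at 360 min against 0 min, and there the PI4KB change was 0.84 and that of SACM1L −1.38. DESeq2 gave PI4KB in mRNA at 360 min against 0 min an unadjusted p-value of 0.0833 and no adjusted value, so it could not be called there. With the replicate block, 0 members were called in every comparison, beside 1, 2 and 7 transcripts in RPF and 0 in mRNA and in the ratio, and the PI4KB ratio change was −1.49 (edgeR adjusted p = 0.873, and 0.35 to 0.9988 over all alternatives). Deviations of same-numbered RPF libraries correlated at 0.335 to 0.349 across 4243 transcripts, those of mRNA at −0.475 to 0.397, and no label says that a number marks a common day. With the mRNA numbers of 0 min exchanged, an alternative added after the data were seen, 0 members were called in either comparison with 0 min. The median RPF to mRNA ratio of the 8 members was 1.13 at 0 min, 1.145 at 60 min and 0.642 at 360 min. Over all transcripts compared it was 1.10, 1.07 and 1.16. The member median includes PI4K2A and EFR3B, which did not pass the filter in both assays, and its difference between times was not tested. At 0 min it was 0.801 to 1.24 when 1 library was left out. Few counts most limit EFR3B and PI4K2A in both assays, SACM1L and EFR3A in mRNA (down to 2 and 4 counts) and TTC7A in RPF (down to 8).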
